A study of Mus musculus with 2 samples.

Results

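The 7 genes described here encode receptors through which blood progenitors and early T cells sense growth factors and interleukins: Kit, Flt3, Il7r, Il2ra, Il2rb, Il2rg and Il4ra. They were chosen by name for that role and were 7 of the 28692 genes listed in each library. The data were 2 droplet single-cell RNA libraries (10X Chromium), FL001 and FL002, of wild-type fetal liver cells taken from CD1 mice at E13.5. Red cells were depleted with TER-119, and Sca-1+ cKit+ progenitors were sorted and grown on plates coated with the Notch ligand DL4 (10 µg/mL) and the adhesion protein VCAM-1 (2.32 µg/mL). The labels give both libraries this genotype, sort and coating and name no other arm, while the study's text describes pooled cells from several culture times and cells captured without culture. Which cells had been cultured, the number of embryos and the day of each library are not given, so the libraries were read side by side, each alone, and no p-value is given.

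Kit binds stem cell factor and Flt3 binds Flt3 ligand; both are receptor tyrosine kinases of stem and multipotent progenitor cells. Il7r is the interleukin-7 receptor alpha chain, needed for lymphoid growth, and Il2ra (CD25) is the interleukin-2 receptor alpha chain and a classical surface marker of T progenitors that have passed the first thymic stages. Il2rb is the interleukin-2 and interleukin-15 receptor beta chain, Il2rg is the common gamma chain shared by the interleukin-2, 4, 7, 9, 15 and 21 receptors, and Il4ra is the interleukin-4 receptor alpha chain. In the thymus, progenitors lose Flt3 first and Kit later, and gain Il2ra and Il7r as they enter the T lineage.

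Barcodes with at least 1500 UMIs (unique molecular identifiers, each standing for 1 captured transcript), 500 or more genes and no more than 10% of UMIs from mitochondrial genes were kept as cells: 1788 in FL001 and 4100 in FL002, with medians of 7722 and 4752.5 UMIs. Kept barcode sequences shared by the libraries numbered 10. Cells were sorted into 5 gates by genes other than the receptors. The Lmo2/Mef2c gate (at least 2 UMIs of these progenitor transcription factors and at most 1 of Cd3g) held 428 cells in FL001 and 724 in FL002. The low gate (Cd3g at most 2, Lmo2 and Mef2c together at most 1) held 381 and 1134 cells, and the Cd3g gate (at least 3 UMIs of this T cell receptor complex chain) held 972 and 2225. The Ptcra/Lef1/Bcl11b gate (at least 2 UMIs of these T commitment genes) held 451 and 501 cells, of which 439 and 478 were also in the Cd3g gate, and the Rora/Klrd1/Ncr1 gate (at least 2 UMIs of these innate lymphoid genes) held 38 and 33. Median depth was 8014.5 and 5649.5 UMIs in the Lmo2/Mef2c gate against 7729 and 4338 in the Cd3g gate. Levels are UMIs per 1000000 (CPM) over the summed cells of a gate. Ranges in brackets are 95% exact intervals, Poisson for levels and binomial for the share of cells with a UMI, and they reflect the error of counting alone.

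The gates matched their markers in part. All 8 early T lineage markers with at least 20 CPM (Tcf7, Cd3e, Cd3d, Thy1, Gata3, Rag1, Lat and Trdc) were over 2-fold higher in the Cd3g gate than in the Lmo2/Mef2c gate in both libraries, and the stem cell genes Cd34, Meis1 and Hlf were over 2-fold lower. Those were 3 of the 5 stem and progenitor markers with at least 20 CPM in FL001, and the others did not pass 2-fold there. The Lmo2/Mef2c gate was mixed: the summed level of 8 neutrophil and monocyte markers was 2323 CPM in FL001 and 1567 CPM in FL002, 2421 and 893 CPM in the low gate and 80.5 and 120 CPM in the Cd3g gate. The 9 megakaryocyte and erythroid markers summed to 790 and 347 CPM in the Lmo2/Mef2c gate and to 40.1 and 32.0 CPM in the Cd3g gate. Leaving out all cells with 3 or more UMIs of these, mast cell or B lineage markers removed 85.0% and 67.4% of the Lmo2/Mef2c gate and kept the direction of the changes of Kit, Flt3, Il7r and Il2ra given below.

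In GENCODE M21 (GRCm38) the 7 protein-coding genes lie on 5 chromosomes: Kit at chr5:75574916-75656722 and Flt3 at chr5:147330741-147400489, Il7r at chr15:9505788-9530176 and Il2rb at chr15:78479256-78495271, Il2ra at chr2:11642807-11693193, Il2rg at chrX:101264378-101268255 and Il4ra at chr7:125552120-125579474.

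The window before the start is described for Kit, Flt3, Il7r and Il2ra, the 4 receptors whose differences between gates are the main subject here. In the RefSeq table of 250 bases before each start (GRCm38.p6), 177 of 250 bases were G or C for Kit (70.8%) and 148 for Flt3 (59.2%), against 110 for Il7r (44.0%) and 106 for Il2ra (42.4%); the median over 27025 genes was 52.0%. The Kit and Flt3 windows held 17 and 13 CpG dinucleotides and the Il7r and Il2ra windows held 1 and 3, with a median of 6 over all genes. Capitals below mark the letters of 6 motifs searched on both strands. The GATA motif AGATAA was in 10.3% of all windows of this length and the Runx motif TGTGGT in 14.2%. The TCF/LEF motif CTTTGA was in 14.1% and the CSL motif TGGGAA, at which Notch signals reach DNA, in 21.5%. The PU.1 motif GAGGAA was in 23.1% and the STAT motif TTCNNNGAA in 7.18%. Kit is printed only up to the start of its gene in GENCODE M21, and the Il7r window lies within the gene as GENCODE places it and is not printed. The submitters' processing notes name the build mm9 while these coordinates are of GRCm38, so they locate the genes but not the reads.
Kit, chr5:75574737-75574915, plus strand: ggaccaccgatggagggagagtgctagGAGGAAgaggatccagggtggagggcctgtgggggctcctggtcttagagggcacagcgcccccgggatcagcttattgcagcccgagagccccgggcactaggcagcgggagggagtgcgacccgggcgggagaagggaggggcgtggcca
Flt3, chr5:147400490-147400739, minus strand: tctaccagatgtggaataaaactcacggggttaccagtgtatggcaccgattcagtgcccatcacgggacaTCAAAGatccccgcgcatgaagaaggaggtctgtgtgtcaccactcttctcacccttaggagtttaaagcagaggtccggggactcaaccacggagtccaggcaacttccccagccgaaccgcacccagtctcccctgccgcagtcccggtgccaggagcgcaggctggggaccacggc
Il2ra, chr2:11642542-11642791, plus strand: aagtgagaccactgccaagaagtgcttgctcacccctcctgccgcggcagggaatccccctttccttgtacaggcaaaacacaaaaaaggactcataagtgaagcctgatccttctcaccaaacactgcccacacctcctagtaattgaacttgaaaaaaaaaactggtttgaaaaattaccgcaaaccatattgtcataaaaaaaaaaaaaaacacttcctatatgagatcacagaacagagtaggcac
Kit held the PU.1 letters 223 bases before its start, Flt3 the reversed TCF/LEF letters 179 bases before, and Il7r the STAT letters TTCAGGGAA 142 bases before. Of the 6 motifs, 0 were found in the Il2ra window, which says only that these letters are not there. Among the other receptors, the Il2rg window held the CSL letters 241 bases before its start and the Runx letters 227 bases before. None of the motifs was in the Il4ra window.

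Flt3 and Il2ra changed places between the Lmo2/Mef2c and the Cd3g gate. Flt3 was 56.9 CPM (49.5 to 65.2) in FL001 and 56.5 CPM (49.6 to 64.1) in FL002 in the Lmo2/Mef2c gate. In the Cd3g gate it was 1.91 CPM (1.09 to 3.10) and 2.81 CPM (1.91 to 3.99). The ratio was 29.8-fold lower (95% interval 17.9 to 53.1) in FL001 and 20.1-fold lower (13.8 to 30.2) in FL002, so Flt3 transcripts were largely a feature of the Lmo2/Mef2c cells in both libraries.

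Il2ra went the other way, from 8.64 CPM (5.91 to 12.2) and 12.7 CPM (9.55 to 16.6) in the Lmo2/Mef2c gate to 331 CPM (319 to 344) and 358 CPM (347 to 370) in the Cd3g gate. That was 38.4-fold higher (27.1 to 56.2) in FL001 and 28.2-fold higher (21.6 to 37.6) in FL002. Droplets with 1 to 100 UMIs, which hold free RNA rather than cells, carried 173 and 247 CPM of Il2ra. The Il2ra level of the Lmo2/Mef2c gate was 4.99% and 5.14% of that, while the low gate, at 62.0 and 105 CPM, held more. Kit in the same droplets was 78.3 and 77.4 CPM, Flt3 12.1 and 13.3 CPM, and Il7r 23.1 and 22.2 CPM.

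Il7r and Kit differed less between these gates. Il7r was 12.7 CPM (9.32 to 16.9) and 12.0 CPM (8.94 to 15.8) in the Lmo2/Mef2c gate and 36.2 CPM (32.2 to 40.5) and 25.8 CPM (22.9 to 29.0) in the Cd3g gate, a ratio of 2.85-fold higher (2.09 to 3.97) in FL001 and 2.15-fold higher (1.59 to 2.95) in FL002. Kit was 72.1 CPM (63.7 to 81.2) and 64.3 CPM (56.9 to 72.3) in the Lmo2/Mef2c gate. In the Cd3g gate Kit was 51.2 CPM (46.5 to 56.3) and 51.4 CPM (47.2 to 55.8), a ratio of 1.41-fold lower (1.20 to 1.64) and 1.25-fold lower (1.08 to 1.45). The cells had been sorted on the Kit protein (cKit) at the start, and the part of that sort in the Kit levels and shares given here was not tested. Without the cells that held other lineages' markers, the log2 difference of Kit in FL001 was -0.82 rather than -0.42, and with cells thinned before the gates were rebuilt it was -1.48, past 2-fold. That rebuilt Lmo2/Mef2c gate held 109 cells in place of 428, so the cells compared changed along with the depth. In FL002 the difference of Kit lay between -0.395 and -0.148 under all 10 alternatives.

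Across all genes, folds were taken on CPM + 10 for genes with at least 20 CPM in either gate, and a change over 2-fold was counted. From the Lmo2/Mef2c to the Cd3g gate 4.01% of 5940 genes were higher and 2.93% lower in FL001, and 3.54% were higher and 2.59% lower in FL002. Of the 5 receptors with enough UMIs (Il2rb and Il4ra were under 20 CPM), Il2ra was higher and Flt3 lower by this rule in both libraries, Il7r was higher in FL001 with a log2 difference of 1.03 (0.68 under stricter gates) and not past 2-fold in FL002 with 0.70 (1.04 with 1 CPM added), and Kit and Il2rg did not pass in either, though Kit in FL001 did with thinned cells, as given above. Flt3, Il7r and Il2ra each reached 20 CPM in only 1 of the gates compared. The direction of their calls was thus set by that minimum, which the ratios given above do not use.

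**Figure D1:**
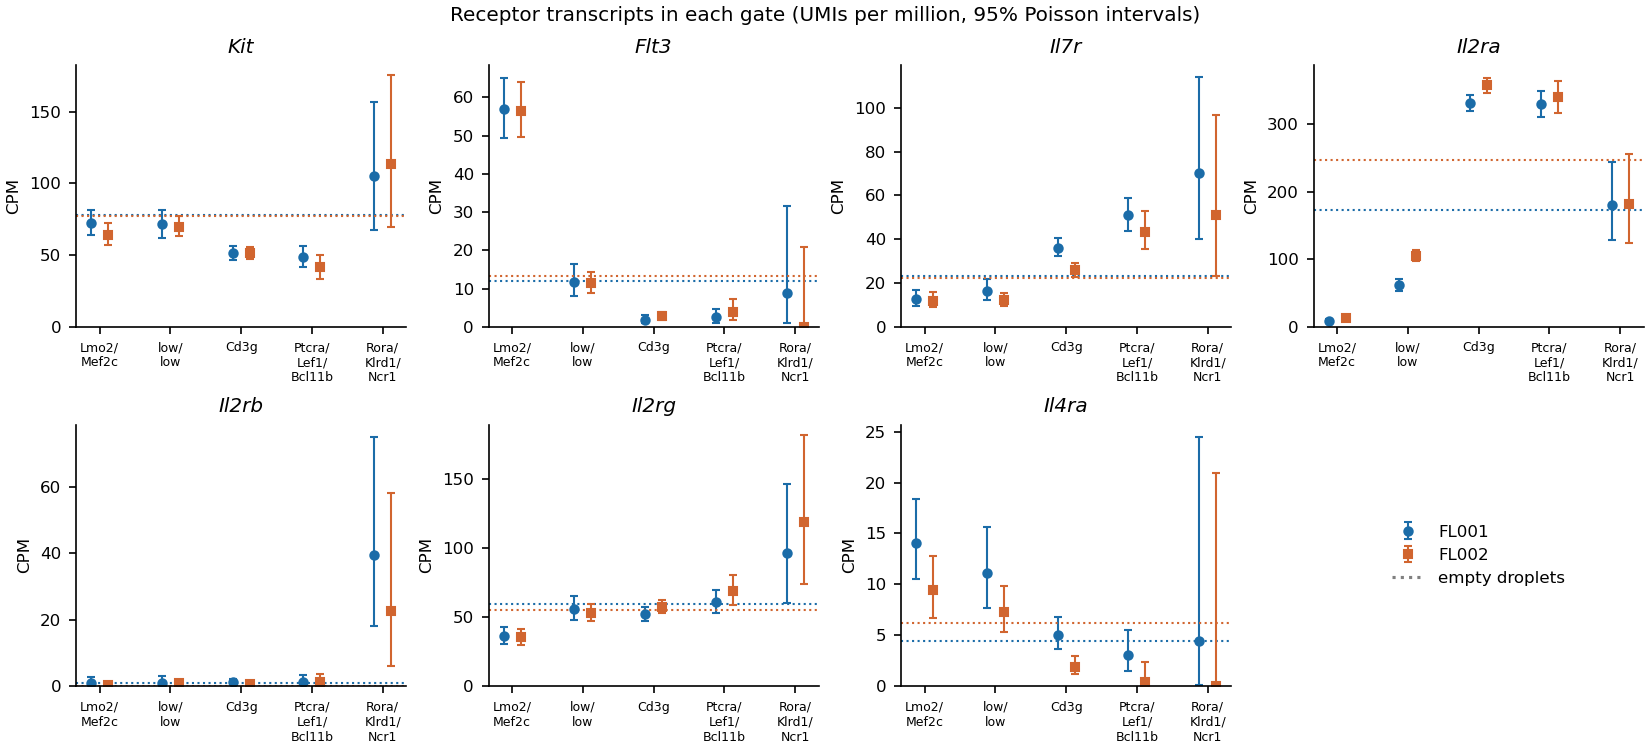
Levels of the 7 receptors (y axes, UMIs per 1000000) in the 5 gates (x axes; low/low is the low gate) for FL001 (circles) and FL002 (squares), with 95% exact Poisson intervals as bars and the level in empty droplets as dotted lines. Flt3 is high in the Lmo2/Mef2c gate alone (56.9 and 56.5 CPM) and Il2ra in the Cd3g and Ptcra/Lef1/Bcl11b gates (330 to 358 CPM). Il2rb in the Rora/Klrd1/Ncr1 gate (39.5 and 22.7 CPM) rests on 9 and 4 UMIs in 38 and 33 cells.

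Shares of cells with a UMI followed the levels. Flt3 was detected in 30.1% of Lmo2/Mef2c cells in FL001 (25.8 to 34.7) and 23.3% in FL002 (20.3 to 26.6), and in 1.34% and 1.21% of Cd3g cells. Il2ra was detected in 3.97% and 4.97% of Lmo2/Mef2c cells, which serve here as cells that should lack it, and in 66.4% (63.3 to 69.3) and 60.8% (58.7 to 62.8) of Cd3g cells. With each cell thinned to 1500 UMIs (no cell was left out), the shares of Flt3 were 7.24% and 8.98% in the Lmo2/Mef2c gate against 0.206% and 0.449% in the Cd3g gate. The thinned shares of Il2ra were 1.17% and 1.52% against 38.0% and 39.0%, so the Il2ra share of the Cd3g gate was close in the 2 libraries once depth was made equal.

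The shares of Kit and Il7r differed less between the gates. Kit was detected in 42.8% and 30.5% of Lmo2/Mef2c cells and 31.9% and 21.5% of Cd3g cells. Thinned, these became 10.0% and 9.94% against 7.82% and 7.96%, with intervals that overlapped between the gates in FL001 (7.37 to 13.3 and 6.21 to 9.69) and in FL002 (7.86 to 12.4 and 6.86 to 9.16). Il7r was detected in 7.24% and 4.70% of Lmo2/Mef2c cells and 24.3% and 11.1% of Cd3g cells, and thinned in 1.87% and 1.80% against 5.66% and 4.63%. The libraries were thus closer in the Il7r share of the Cd3g gate at equal depth, while the intervals of its level did not overlap.

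The changes were laid out over 9 strata that shared no cells within a library, ordered by Cd3g UMIs, which is an order of counts and not of time. Flt3 dropped at the first step, in cells with at most 1 UMI of Lmo2 and Mef2c and no Cd3g: from 56.7 to 15.4 CPM in FL001 (10.3 to 22.1) and from 56.8 to 14.7 CPM in FL002 (11.1 to 19.1). At 1 to 2 Cd3g UMIs it was 5.83 and 5.40 CPM, on 6 and 11 UMIs. Flt3 was thus already low in cells without Cd3g, by about the same amount in both libraries.

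Il2ra climbed over several strata. In FL001 it was 8.68 CPM in Lmo2/Mef2c cells, 35.1 CPM at Cd3g 0, 112 CPM at 1 to 2, 157 CPM at 3 to 5, 318 CPM at 6 to 10, 345 CPM at 11 to 20 and 380 CPM over 20 UMIs. In FL002 the same strata held 12.8, 75.2, 162, 293, 346, 385 and 402 CPM. FL002 was above FL001 at each of the 7 strata, and the intervals did not overlap at Cd3g 0 (27.1 to 44.6 and 66.8 to 84.5), 1 to 2 (92.3 to 134 and 145 to 181) and 3 to 5 UMIs (129 to 189 and 267 to 321). The strata use raw UMIs and FL002 cells were shallower. The libraries also differed in the low gate, which holds the strata at Cd3g 0 and 1 to 2. There 66.4% of cells in FL001 and 40.5% in FL002 had 3 or more UMIs of other lineages' markers. The part of depth and of such cells in this difference, and of such cells in the Flt3 step above, was not tested. In the stratum of cells with Ptcra, Lef1 or Bcl11b, Il2ra was 335 CPM (316 to 354) and 341 CPM (317 to 366). Those intervals lay below the ones over 20 Cd3g UMIs (356 to 404 and 377 to 429).

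Kit changed less and unevenly. It was 72.4 and 63.8 CPM in the Lmo2/Mef2c stratum, and 79.7 and 70.0 CPM at Cd3g 0. At 1 to 2 Cd3g UMIs it was 56.4 CPM (42.8 to 72.9) and 68.7 CPM. At 3 to 5 it was 74.8 CPM (56.1 to 97.9) and 62.0 CPM (50.2 to 75.7). At 6 to 10 it was 63.5 CPM and 48.4 CPM (39.4 to 58.9), and at 11 to 20 61.8 and 59.2 CPM. Over 20 Cd3g UMIs it was 40.2 CPM (32.8 to 48.9) and 44.3 CPM (36.1 to 53.7), with both intervals below that of the first stratum, as were those of the cells with Ptcra, Lef1 or Bcl11b, at 45.8 and 41.9 CPM. Il7r lay between 9.47 and 15.2 CPM in both libraries up to 2 Cd3g UMIs, between 9.88 and 29.5 CPM in the strata from 3 Cd3g UMIs on, and was 50.4 CPM (43.2 to 58.5) and 42.3 CPM (34.2 to 51.7) in cells with Ptcra, Lef1 or Bcl11b. Il7r was already higher in some strata limited to cells with fewer than 2 UMIs of those genes. Over 20 Cd3g UMIs in FL001 it was 29.5 CPM (23.1 to 37.0) against 12.7 CPM (9.36 to 16.9) in the first stratum. At 6 to 10 in FL002 it was 23.7 CPM (17.5 to 31.4) against 11.8 CPM (8.78 to 15.6). Those strata still hold cells with 1 UMI of Ptcra, Lef1 or Bcl11b, and the part of such cells was not tested.

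**Figure D2:**
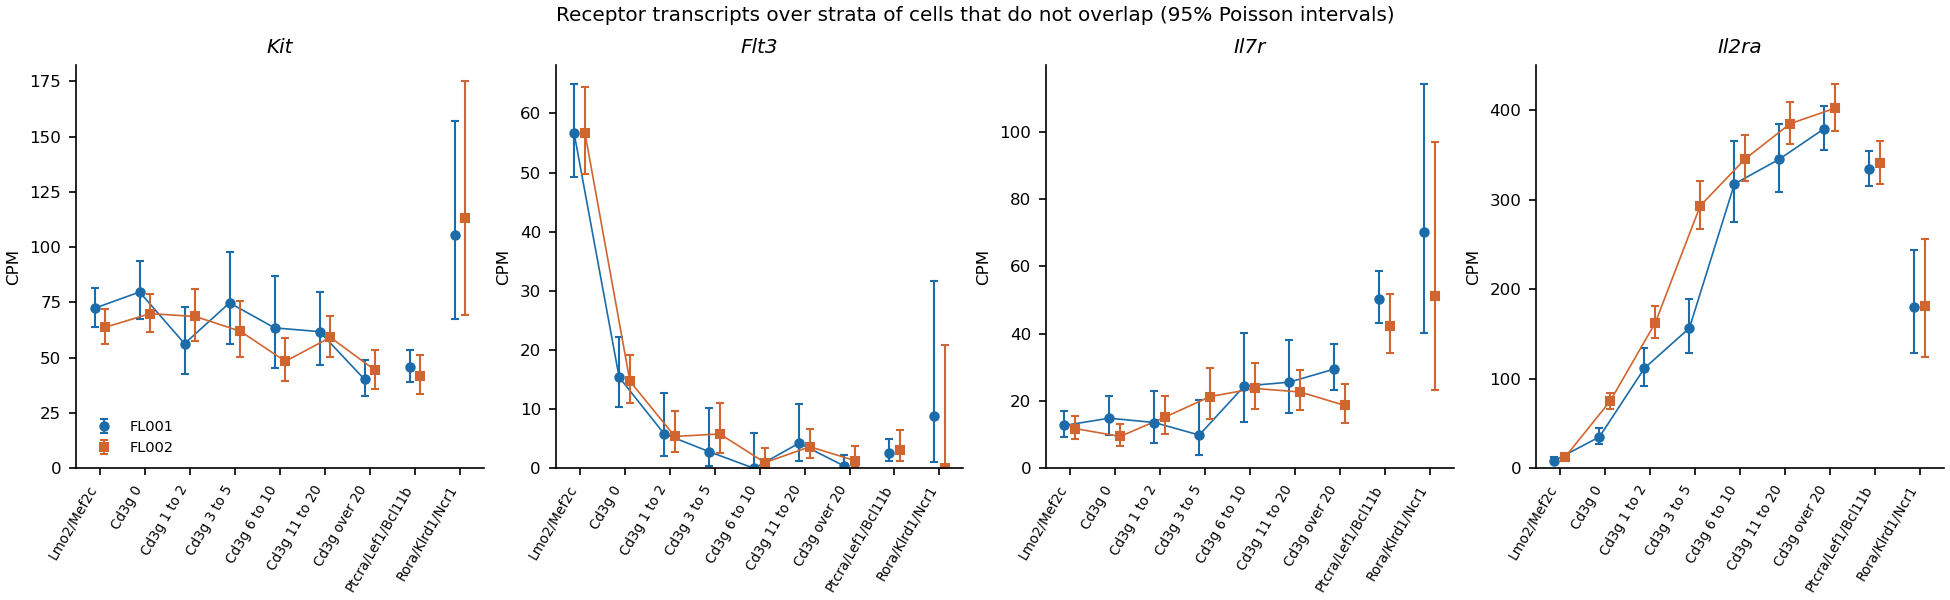
Levels of Kit, Flt3, Il7r and Il2ra (y axes, UMIs per 1000000) over 9 strata that share no cells (x axes), FL001 as circles and FL002 as squares, with 95% exact Poisson intervals; lines join the Lmo2/Mef2c stratum and the strata of rising Cd3g UMIs. Flt3 drops at the first step to 15.4 and 14.7 CPM, while Il2ra climbs to 380 and 402 CPM.

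Commitment genes split Il7r from Il2ra. The Ptcra/Lef1/Bcl11b gate was compared with Cd3g cells outside it. Il7r was 50.9 CPM in that gate against 25.9 CPM outside it in FL001, 1.97-fold higher (1.56 to 2.49), and 43.5 against 21.4 CPM in FL002, 2.03-fold higher (1.58 to 2.60). Il2ra was 330 against 329 CPM in FL001, with an interval of the ratio of 0.927 to 1.08, and 340 against 363 CPM in FL002, a ratio of 0.937 (0.866 to 1.01). Kit was 1.10-fold lower (0.907 to 1.35) and 1.30-fold lower (1.04 to 1.63), an interval that holds no change in FL001. On the CPM + 10 scale none of the 4 receptors with enough UMIs passed 2-fold, beside 1.17% of all genes higher and 0.424% lower in FL001 and 0.707% higher and 0.212% lower in FL002.

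Within the Cd3g gate, cells were also binned by the summed UMIs of Ptcra, Lef1 and Bcl11b, a split chosen after the data were seen. Il7r was 22.0 CPM (17.7 to 27.1) and 18.1 CPM (15.1 to 21.6) in cells with none. It was 43.8 CPM (31.0 to 60.1) and 34.2 CPM (26.1 to 43.9) in cells with 1 UMI, and 50.9 CPM (39.6 to 64.4) and 40.5 CPM (25.7 to 60.8) in cells with 5 to 9. Il7r was thus already higher at the first commitment UMI in both libraries.

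Il2ra was highest at 1 commitment UMI in the same bins and lower at 5 to 9. It was 307 CPM (290 to 325) and 352 CPM (338 to 366) with no commitment UMI, 431 CPM (389 to 477) and 404 CPM (375 to 435) with 1, and 345 CPM (314 to 377) and 261 CPM (220 to 306) with 5 to 9. In cells with 10 or more it was 215 CPM (180 to 254) in 71 cells of FL001 and 77.2 CPM (25.1 to 180) in 12 cells of FL002. The equal Il2ra levels inside and outside the commitment gate therefore covered a higher level at 1 commitment UMI and a lower one at 10 or more. At 2 to 4 UMIs Il2ra was 374 CPM (344 to 405) and 379 CPM (350 to 410). That overlapped the cells with 1 UMI in both libraries and the cells with none in FL002. A peak at 1 UMI was thus not told apart from a level held up to 4. Il7r in the cells with 10 or more was 74.2 CPM (54.3 to 99.0) in FL001, and in FL002 61.7 CPM on too few UMIs to place (16.8 to 158).

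**Figure D3:**
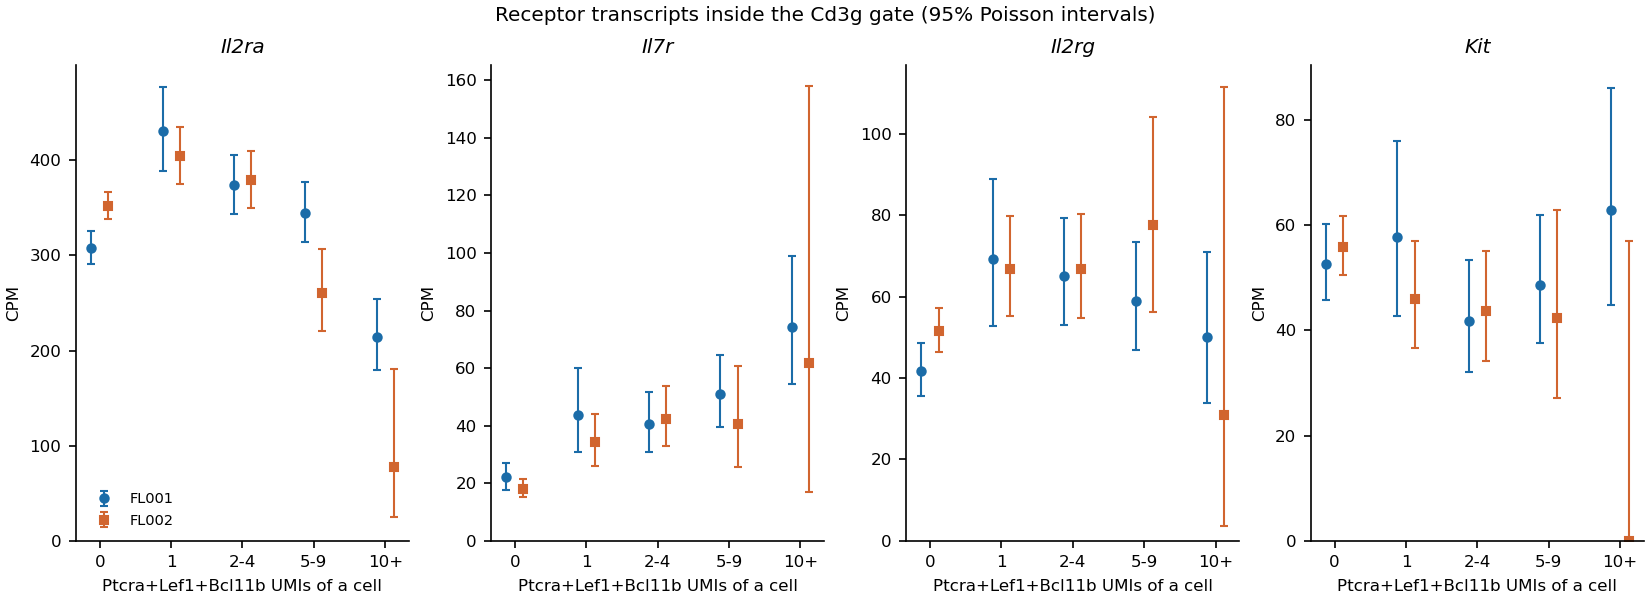
Levels of Il2ra, Il7r, Il2rg and Kit (y axes, UMIs per 1000000) in cells of the Cd3g gate binned by summed UMIs of Ptcra, Lef1 and Bcl11b (x axes), FL001 as circles and FL002 as squares, with 95% exact Poisson intervals. Il2ra is 431 and 404 CPM at 1 UMI and 374 and 379 CPM at 2 to 4, with overlapping intervals. At 10 or more it is 215 and 77.2 CPM, in FL002 on 5 UMIs in 12 cells. Il7r is lowest in cells with none (22.0 and 18.1 CPM).

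The 3 pairs that follow were found together about as often as the product of their shares. In the Cd3g gate Kit and Il2ra were both detected in 195 of 972 cells of FL001 (20.1%, product 21.2%) and in 275 of 2225 cells of FL002 (12.4%, product 13.1%). Il7r and Il2ra were together in 160 cells (16.5%, product 16.1%) and 154 cells (6.92%, product 6.75%). Kit and Flt3 in the Lmo2/Mef2c gate were together in 51 of 428 cells (11.9%, product 12.9%) and 55 of 724 (7.60%, product 7.13%). The product takes no account of depth, which differed between these cells. In the Cd3g gate, cells with Kit and Il2ra but not Flt3 or Il7r had medians of 9151.5 and 5068 UMIs. Cells with Il2ra and none of the others had 6814 and 4134. Neither an excess nor a lack of these pairs is therefore read from the comparison. The 4 receptors were rarely seen at once: Kit, Flt3, Il7r and Il2ra were all detected in 0.103% of Cd3g cells in FL001 and 0.0899% in FL002.

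Flt3 and Il7r were found together more often than that in the Lmo2/Mef2c gate. Of the cells with an Il7r UMI, 19 of 31 in FL001 (61.3%, 42.2 to 78.2) and 21 of 34 in FL002 (61.8%, 43.6 to 77.8) also had Flt3. Of the cells without Il7r, 110 of 397 (27.7%, 23.4 to 32.4) and 148 of 690 (21.4%, 18.4 to 24.7) had Flt3. Both were thus found in 4.44% and 2.90% of the gate, where the product of the shares was 2.18% and 1.10%.

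Deeper cells show more of every gene, and the cells with Il7r here had a median of 10706 UMIs against 7893 in FL001, and 6479.5 against 5603 in FL002. Taken as a level, which divides by depth, Flt3 was 129 CPM in cells with Il7r and 49.8 CPM in cells without it in FL001, a ratio of 2.58 (1.80 to 3.63), and 137 against 52.1 CPM in FL002, a ratio of 2.63 (1.73 to 3.86). At or under the median depth of the gate the shares were 7 of 12 against 53 of 202 cells and 8 of 14 against 61 of 348. Over it they were 12 of 19 against 57 of 195 and 13 of 20 against 87 of 342, so Flt3 was more frequent beside Il7r on both sides of the split in both libraries, with overlapping intervals in the shallower cells of FL001 (27.7 to 84.8 and 20.3 to 32.9). In thinned cells too few carried both to say: 0 of 428 in FL001, which allows a share of up to 0.701%, and 2 of 724 in FL002. Kit showed no such pattern, with 12 of 31 cells with Il7r (38.7%) against 43.1% of the others in FL001 and 9 of 34 (26.5%) against 30.7% in FL002.

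**Figure D4:**
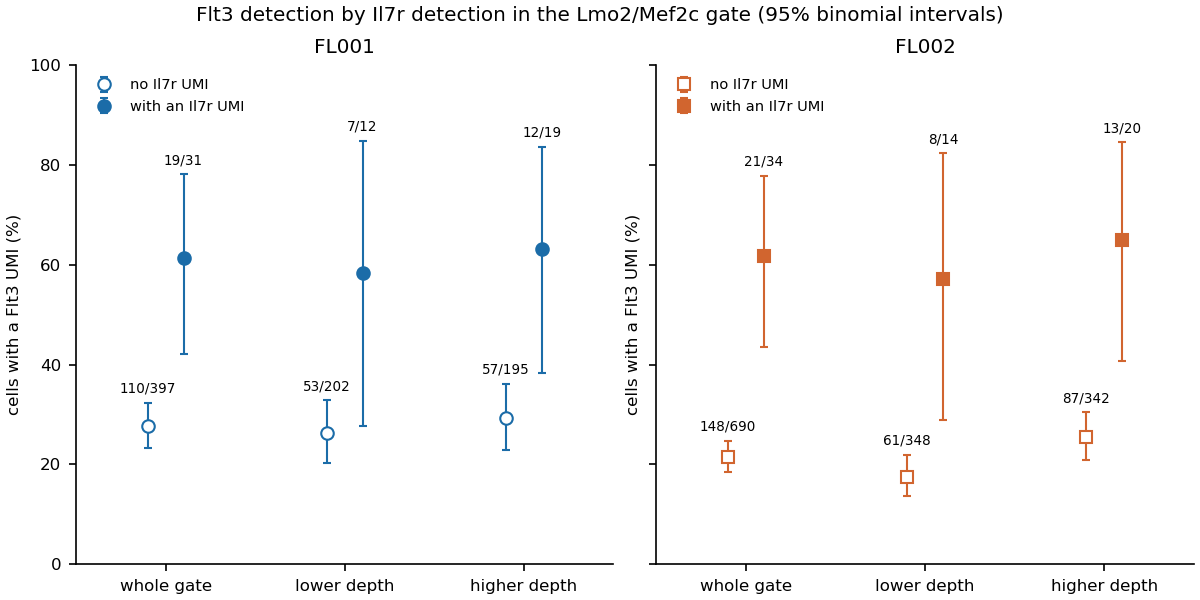
Percent of Lmo2/Mef2c cells with a Flt3 UMI (y axes) in cells with (filled) and without (open) an Il7r UMI, for the whole gate and for cells at or under and over its median depth (x axes); bars are 95% exact binomial intervals and fractions are cells. The filled points are at 57.1% to 65.0% and the open points at 17.5% to 29.2%.

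The cells of the Lmo2/Mef2c gate were then described by both receptors, which, like the split by depth, was chosen after the data were seen. Cells with Flt3 and no Il7r carried few UMIs of Pf4 and Elane. Stem and progenitor markers were found in every group. The 7 of them summed to 621 and 566 CPM with Flt3 alone and to 462 and 440 CPM with neither receptor. They summed to 414 and 387 CPM with both and to 396 and 236 CPM with Il7r alone. With Flt3 alone the stem cell factor Hlf was 93.9 CPM (75.6 to 115) and 55.4 CPM (41.3 to 72.6). The progenitor surface protein Cd34 was 363 CPM (326 to 403) and 352 CPM (315 to 392) in the same cells. The platelet gene Pf4 gave 1 and 2 UMIs in these cells and the neutrophil protease Elane 1 and 1, against 2183 and 1164 UMIs of Pf4 and 533 and 360 of Elane in cells with neither receptor. Those UMIs came from few cells, 21 and 21 for Pf4 and 18 and 13 for Elane. Other neutrophil genes were not absent with Flt3 alone: the 8 neutrophil and monocyte markers summed to 1377 and 1219 CPM there against 2797 and 1730 CPM with neither. The granule gene Mpo was 838 and 807 CPM against 1121 and 745 CPM, and the protease Prtn3 384 and 296 CPM against 594 and 421 CPM.

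Cells with both receptors carried more Ebf1 than cells with Flt3 alone and, in FL001, less Hlf. Hlf had 0 and 2 UMIs there. The 7 B lineage markers summed to 261 and 223 CPM with both receptors and to 64.0 and 92.6 CPM with Flt3 alone. They summed to 251 and 602 CPM with Il7r alone and to 86.6 and 59.9 CPM with neither. B lineage transcripts were thus not particular to cells with both receptors. Ebf1, the transcription factor that starts the B cell program, was 128 CPM (83.6 to 188) with both receptors and 6.19 CPM on 6 UMIs with Flt3 alone in FL001, in 9 of 19 and 4 of 110 cells. In FL002 it was 96.7 CPM (51.5 to 165) and 26.6 CPM (17.2 to 39.3), in 3 of 21 and 12 of 148 cells. Rag1, the recombinase of antigen receptor genes, was 24.6 and 14.9 CPM with both receptors against 1.03 and 3.19 CPM with Flt3 alone, on 5 and 2 UMIs. Tcf7, a T lineage transcription factor, was 39.4 CPM (17.0 to 77.6) and 29.8 CPM (8.11 to 76.2) against 1.03 and 4.26 CPM, in 2 and 3 cells, and it was 32.5 and 44.0 CPM in cells with neither receptor. The FL002 intervals of Hlf, of Rag1 and of Tcf7 overlapped between cells with both and with Flt3 alone.

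The Lmo2/Mef2c gate allows at most 1 Cd3g UMI in any cell. Its 9 early T lineage markers summed to 93.6 and 89.3 CPM with both receptors and to 52.6 and 57.5 CPM with Flt3 alone. They summed to 114 and 177 CPM with Il7r alone and to 127 and 152 CPM with neither. In the cells with both receptors, 5 and 3 of the 9 had no UMI. Cd3e had 0 UMIs in both libraries, Trdc 0, and Il2ra 0 in FL001 and 1 in FL002; a count of 3 UMIs would be 14.8 and 22.3 CPM. Cells with Il7r and no Flt3 numbered 12 and 13. There the surrogate light chain genes Igll1 and Vpreb1 were 60.9 and 45.7 CPM in FL001 and 201 and 118 CPM in FL002, but each came from 1 cell a library, and Pax5, which fixes B cell identity, from 3 cells of FL002. Ebf1, Igll1, Vpreb1 and Pax5 were under 20 CPM in every gate and were named after their values were seen. Flt3 was rare in the Cd3g gate. There 8 of 236 (3.39%) and 5 of 247 (2.02%) cells with Il7r also had Flt3, against 0.679% and 1.11% of cells without Il7r. Most of those with both were deep cells. The 6 cells of FL001 and 3 of FL002 with Flt3, Il7r and Il2ra but no Kit had medians of 15519 and 6241 UMIs. The medians of the gate were 7729 and 4338. The cells are few and the part of depth was not tested, so no excess is read from them.

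**Figure D5:**
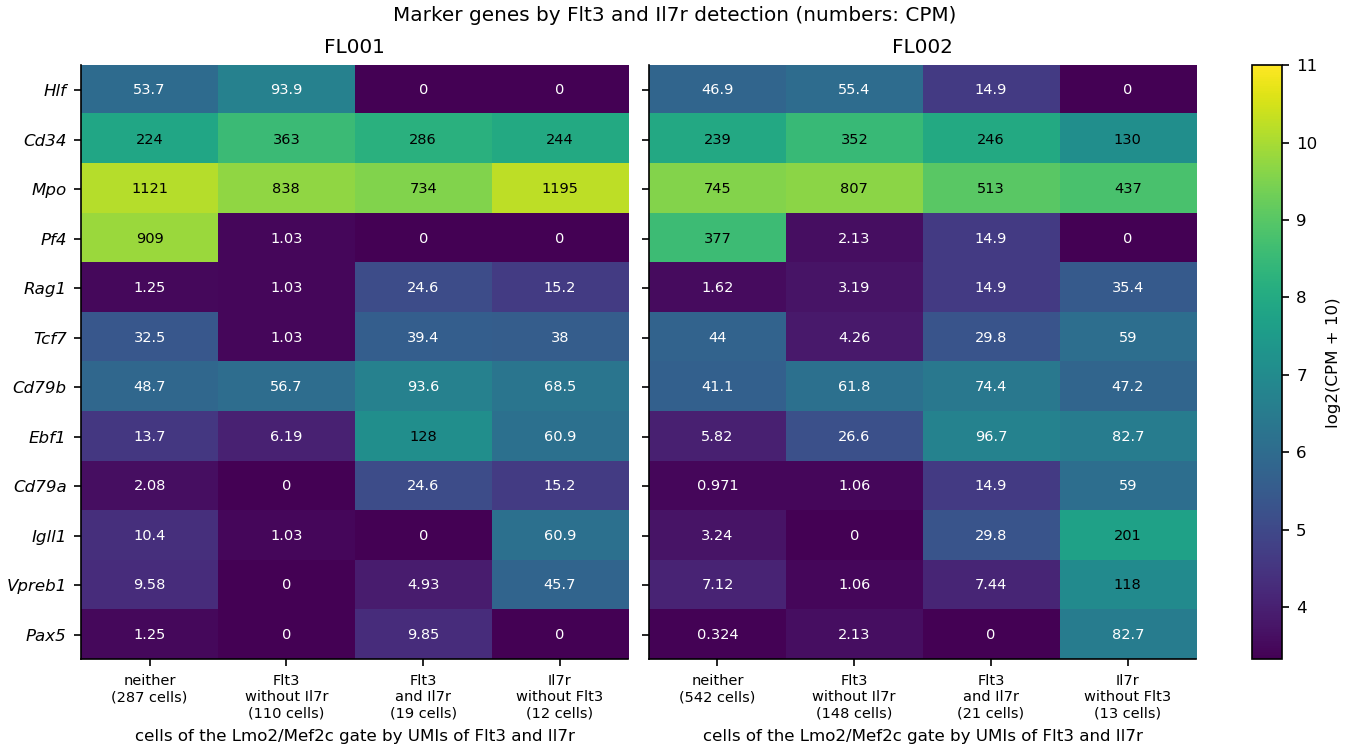
Levels (colour, log2 of UMIs per 1000000 + 10; numbers, UMIs per 1000000) of 12 marker genes (rows) in Lmo2/Mef2c cells grouped by UMIs of Flt3 and Il7r (columns), FL001 left and FL002 right. Pf4 is at 909 and 377 CPM in cells with neither receptor, and Ebf1 is highest with both (128 and 96.7 CPM). The 7 B lineage markers together sum to 261 and 223 CPM with both and to 251 and 602 CPM with Il7r alone.

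Il2ra was uneven within the Cd3g gate. No Il2ra UMI was found in 327 of 972 cells of FL001 and 873 of 2225 of FL002, while 24.7% and 11.5% had 5 or more and the highest cell had 26 and 13. Cells without Il2ra had median depths of 7878 and 4386 UMIs, against 7931 and 4603 in cells with 3 or more and 9301 and 5146 in cells with 6 or more; the part of depth in these groups was not tested. Trdc, the constant region of the T cell receptor delta chain, differed between them, at 73.6 CPM (63.9 to 84.3) and 93.4 CPM (84.6 to 103) without Il2ra and 139 CPM (127 to 152) and 194 CPM (179 to 209) with 3 or more UMIs. Tcf7 did not follow, at 298 and 417 CPM without and 292 and 411 CPM with Il2ra. Kit was 55.9 CPM (47.5 to 65.3) and 54.8 CPM (48.1 to 62.1) without Il2ra against 46.9 CPM (40.1 to 54.5) and 47.6 CPM (40.4 to 55.7) with 3 or more, with overlapping intervals, and Il7r was 33.6 and 24.3 CPM against 37.2 and 22.1 CPM.

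The partner chains moved little along the main path. Il2rg was 36.4 CPM (30.5 to 43.1) and 35.5 CPM (30.1 to 41.7) in the Lmo2/Mef2c gate, and 52.3 CPM (47.5 to 57.4) and 57.5 CPM (53.1 to 62.1) in the Cd3g gate, 1.44-fold higher (1.18 to 1.75) and 1.62-fold higher (1.35 to 1.94). It was higher again in the commitment gate, at 61.0 and 68.8 CPM, 1.31-fold (1.08 to 1.58) and 1.26-fold (1.05 to 1.51) above Cd3g cells outside it. The gamma chain was thus detected in the Lmo2/Mef2c gate, where Il2ra was low. Its level in empty droplets was 59.5 and 55.2 CPM. A predicted gene, Gm20489, overlaps Il2rg on the same strand in GENCODE M21, so the split of their reads is uncertain.

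Il4ra was lower in the Cd3g gate and Il2rb was close to undetected in both. Il4ra was 14.0 CPM (10.5 to 18.4) and 9.41 CPM (6.73 to 12.8) in the Lmo2/Mef2c gate and 5.02 CPM (3.61 to 6.78) and 1.91 CPM (1.18 to 2.91) in the Cd3g gate, 2.80-fold (1.83 to 4.31) and 4.94-fold (2.84 to 8.81) lower. In the commitment gate it was 3.08 CPM on 11 UMIs in FL001 and 1 UMI in FL002. Il2rb had 4 and 1 UMIs in the Lmo2/Mef2c gate and 10 and 6 in the Cd3g gate, at or under 1.19 CPM. Il2ra and Il2rb were both detected in 2 of 972 and 0 of 2225 Cd3g cells; at this depth that limits the cells with a UMI of both (up to 0.135% in FL002), not the cells that express both.

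The small Rora/Klrd1/Ncr1 gate, whose Il2rb rested on few UMIs, had less Il2ra, taken whole, than Cd3g cells outside it. It was checked by innate markers it was not built on: Klrb1c and Id2 were over 2-fold higher than in Cd3g cells outside it in both libraries. Il2rb was 39.5 CPM (18.1 to 75.1) in FL001 and 22.7 CPM (6.18 to 58.1) in FL002, on 9 and 4 UMIs, against 3 and 2 UMIs in the Cd3g cells outside it. Kit was 105 CPM (67.6 to 157) and 113 CPM (69.3 to 175), 2.12-fold higher (1.34 to 3.20) and 2.23-fold higher (1.35 to 3.48). Il2rg was 96.7 and 119 CPM, 1.87-fold higher (1.16 to 2.88) and 2.09-fold higher (1.28 to 3.22). Il2ra was 180 CPM (129 to 244) and 181 CPM (124 to 256), 1.85-fold lower (1.36 to 2.58) and 1.98-fold lower (1.40 to 2.90). On CPM + 10, Kit passed 2-fold in FL002 alone. Of all genes, 5.32% were higher and 3.95% lower in FL001, and 4.42% higher and 4.71% lower in FL002. Il2rb also passed in both libraries, but it reached 20 CPM only through this gate. Its passing was therefore set by that minimum and is not read as a result.

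The Il2ra of this gate lay in its cells that also had 3 or more Cd3g UMIs. In those 26 and 22 cells it was 251 CPM (178 to 345) and 270 CPM (184 to 384), against 39.3 CPM (8.11 to 115) and 16.2 CPM (0.411 to 90.4) in the other 12 and 11 cells. Cd3g cells outside the gate were at 333 and 359 CPM, within the intervals of the cells with Cd3g. A lower Il2ra was thus not resolved between cells that all had 3 or more Cd3g UMIs. Il2rb also lay mostly in the cells with Cd3g, with 7 and 4 UMIs there against 2 and 0 in the others. Kit in FL001 was 132 CPM (80.7 to 204) with Cd3g and 52.4 CPM (14.3 to 134) in the others. In FL002 Kit was 105 CPM (54.1 to 183) and 130 CPM (56.0 to 256). Il7r was 70.3 CPM (40.2 to 114) and 51.0 CPM (23.3 to 96.9) over the whole gate. Flt3 had 2 UMIs in FL001 and 0 of 33 cells in FL002, which allows a share of up to 9.09%. Mast cell and basophil markers summed to 264 and 267 CPM in this gate, nearly all Cpa3 (259 and 244 CPM), and 5 and 4 of the 7 markers were at 0, Ms4a2, a mast cell and basophil receptor chain named after its values were seen, among them. Further, the stem cell genes Cd34, Meis1 and Ly6a were over 2-fold higher in FL002 (56.7, 28.4 and 45.4 CPM against 16.4, 8.90 and 7.52 CPM in Cd3g cells outside the gate), and Fcgr3, a monocyte and NK cell receptor, in both libraries (39.5 and 39.7 CPM against 6.20 and 6.97 CPM). The part of these in the Kit level was not tested.

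Genes of the same pathways were counted from fixed lists, with the share of all genes given above for this pair of gates. Of 9 feedback inhibitors and targets of cytokine signals, 7 had enough UMIs, and Socs1, Socs2 and Bcl2 were over 2-fold higher in the Cd3g gate in both libraries, with Pim1 in FL002. Socs1, which blocks the kinases below these receptors, went from 2.97 to 46.1 CPM in FL001, 15.5-fold (8.58 to 31.4), and from 3.06 to 44.9 CPM in FL002, 14.7-fold (8.49 to 27.7). Socs1 reached 20 CPM only through the Cd3g gate, which set the direction of its call, so the call is not read as a result. Bcl2, a survival gene downstream of Il7r, was 4.93-fold (4.04 to 6.06) and 6.08-fold (4.85 to 7.72) higher, and Socs2 4.70-fold (3.78 to 5.92) and 5.68-fold (4.65 to 7.01). Of the 9 kinases and STAT factors 5 had enough UMIs and 0 passed 2-fold on CPM + 10. Jak1 was 1.13-fold (0.993 to 1.28) and 1.26-fold (1.11 to 1.43) higher without added CPM.

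Among the other receptors, 1 of the 2 measurable members of the common gamma chain family and partner list was higher in both libraries. This was Il15ra, the interleukin-15 receptor alpha chain, at 9.72 and 9.18 CPM in the Lmo2/Mef2c gate and 37.0 and 33.6 CPM in the Cd3g gate. Il15ra reached 20 CPM only through the Cd3g gate, which set the direction of its call, so the call is not read as a result. Of 12 other growth factor receptors of progenitors, 3 and 2 had enough UMIs. Of these, the macrophage receptor Csf1r was lower in FL001 with 2 UMIs left in the Cd3g gate. Csf1r reached 20 CPM there only through the Lmo2/Mef2c gate, so that call is not read as a result either. Il12rb2, an interleukin-12 receptor chain, was the 1 innate receptor measurable for this pair, going from 7.56 to 32.1 CPM in FL001 and from 8.71 to 23.4 CPM in FL002, and passed 2-fold on CPM + 10 in FL001. Its entry too came only through the Cd3g gate, so its call is not read as a result. None of the 9 ligands reached 20 CPM in either of these 2 gates. Between Cd3g cells outside and inside the Ptcra/Lef1/Bcl11b gate, 0 of 7 feedback genes and 0 of 5 kinases and STAT factors passed 2-fold in either library.

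The genes whose levels most resembled the receptors' were found by Pearson's r of log2(CPM + 10) over the 18 strata of both libraries, among 7262 genes. The strata share libraries and an order along Cd3g, so these are descriptions without a p. Among the closest to Flt3 were Gm16104 (r = 0.955) and Adgrl4 (0.952). Closest to Il2ra were Prkch (0.967), 1500009L16Rik (0.963) and Timp2 (0.962), and closest to Il7r were Cd163l1 (0.966), Skap1 (0.963) and Tnfrsf9 (0.960). Kit had weaker matches, led by Cd52 (0.901), Dok2 (0.900) and Ehbp1l1 (0.894).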

How the data were processed

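The authors deposited UMI counts per gene and barcode for 2 libraries, made with Cell Ranger (version not given in the sources used here); the submitters' processing notes name mm9. Libraries held 16320118 and 22651783 UMIs, of which 92.7% and 94.0% were in kept cells. UMIs were summed over cells of a gate and divided by the sum of all UMIs there (CPM). Intervals of a ratio of 2 sums condition on their total. A count of 0 allows 3 counts. Scrublet (scanpy 1.11.5) marked 0.391% and 0.0244% of cells as doublets, too few to have worked, so none were removed. Scripts ran in Python 3.11.15 with scipy 1.17.1, and the fold counts were tested on simulated data. There was 1 library per group, and no test was made. All members, listed genes with at least 20 CPM in a gate and the 3 genes most alike to each of 4 receptors were to be named; members, gates and lists were chosen with earlier results of these data known. Il2rb was not in the promoter table. Gene IDs matched GENCODE M21 for 28339 of 28692 genes; Gm26597 overlaps Flt3 on the other strand. Some genes that the naming rule would include are not reported here.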

Additional observations from a re-analysis of the deposited data

Results flagged for a closer look

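The 7 cells of FL001 and 17 cells of FL002 that fell in no gate held receptor UMIs above the 3 counts that a count of 0 allows. In FL001 these were 6 UMIs of Il2ra, all from 1 cell, and 4 UMIs of Il2rg. In FL002 they were 18 UMIs of Kit in 10 of the cells (124 CPM, 73.4 to 196), 5 UMIs of Il2ra and 7 UMIs of Il2rg. Kit in the cells of FL001 gave 3 UMIs.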

How the results depend on the processing

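The log2 differences of Kit, Flt3, Il7r and Il2ra between the Lmo2/Mef2c and Cd3g gates kept their sign in all 80 values over 10 alternatives, and 19 moved beyond the counting interval. In FL001, with cells thinned before the gates were rebuilt, Kit was -1.48, Flt3 -2.93 and Il2ra 4.76. Stricter gates gave Flt3 -2.90, Il7r 0.68 and Il2ra 4.81, and 1 CPM added in place of 10 gave Flt3 -4.32, Il7r 1.44 and Il2ra 5.11. Flt3 was -2.61 without the top 5% of doublet scores and -2.62 as the mean of cells' own CPM, and Kit was -0.82 without cells holding other lineages' markers. In FL002, Flt3 was -2.51 without those doublet scores, -2.55 thinned, -2.75 under stricter gates and -3.91 with 1 CPM added, and Il2ra was 5.20 thinned, 4.51 under stricter gates and 4.71 with 1 CPM added. Of 320 other log2 differences 36 moved, and of 670 shares 171 moved; the causes were not tested. With 1 CPM added, genes over 2-fold in the Ptcra/Lef1/Bcl11b gate went from 66 to 113 and from 40 to 66 higher, and from 24 to 48 and from 12 to 33 lower, and in the Rora/Klrd1/Ncr1 gate from 327 to 562 and from 273 to 501 higher, and from 243 to 435 and from 291 to 492 lower. Without the 20 CPM minimum, 480 genes in place of 291 were lower there in FL002. No paired analysis was possible because each group is 1 library and no test was made. Il2rb, Il4ra and the Rora/Klrd1/Ncr1 gate are limited by few UMIs and cells.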
